A study of Mus musculus with 12 samples.

Results

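The S100 proteins and annexins described here are 10 mouse genes, S100a4, S100a6, S100a10, S100a11, S100a13, Anxa1, Anxa2, Anxa4, Anxa5 and Anxa6, measured on 12 Affymetrix arrays of CD8 T cells. All probe sets annotated to these genes were taken, and each gene was read from its brightest probe set among those naming no other gene. That gave a value to 9 of the 10 genes, among 18193 genes in all. S100a11 has a single probe set, which also names the pseudogene S100a11-ps and the gene model Gm12854, so its signal is described but was not tested. The 10 genes have 20 probe sets, of which 19 name 1 gene. No filter on low values was applied. With one, 8 of the 9 genes would have passed and Anxa1 would not.

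The tumour T cells were tumour-infiltrating lymphocytes (TIL) sorted from B16F10-GP tumours, a mouse skin melanoma line grown in the flank, 17 to 19 days after injection. There were 4 arrays of Tim-3+ 2B4+ PD-1+ TIL, which the labels call exhausted, and 3 arrays of Tim-3- 2B4- PD-1+ TIL, which they call stem-like. They are called Tim-3+ and Tim-3- TIL below. The comparison cells were naive CD8 T cells from the spleen of naive mice, on 5 arrays. All mice carried the strain label C57bl/c and were 6 to 8 weeks old. No gene deletion or drug is named for any group. The tumours were cut up, digested with collagenase and spun through Percoll before sorting, a treatment the labels describe for tumours. The labels do not give the sort gate of the spleen cells, nor whether the arrays of a group came from separate mice, so p-values measure only the spread between these samples. Organ and cell state cannot be told apart in either comparison with naive cells, and both of those comparisons use the same 5 naive arrays. In bulk samples, fewer cells of a type and less RNA per cell cannot be told apart.

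S100 proteins are small calcium sensors with a pair of EF-hand loops. On binding calcium most of them open a hydrophobic surface and attach to a target protein. Annexins bind phospholipid membranes when calcium rises, and several form complexes with an S100 dimer. S100A10 with annexin A2 and S100A11 with annexin A1 are the best known pairs. In CD8 T cells, higher S100a4, S100a6, Anxa1 and Anxa2 transcripts are widely used as signs of antigen experience.

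Promoter sequence is shown for S100a4 and S100a6, neighbours on chromosome 3 with the largest changes against naive cells among the 9 genes, and for the annexins Anxa1 and Anxa2. Each run is the 250 bases before the annotated start, 5′ to 3′ on the gene's strand, from RefSeq for build GRCm38.p6. The S100a4 run is chr3:90603520-90603769 on the plus strand and the S100a6 run is chr3:90612644-90612893 on the plus strand. The Anxa1 run is chr19:20390672-20390921 on the minus strand and the Anxa2 run is chr9:69453433-69453682 on the plus strand. Capitals mark matches to the motifs named after the sequences.
S100a4: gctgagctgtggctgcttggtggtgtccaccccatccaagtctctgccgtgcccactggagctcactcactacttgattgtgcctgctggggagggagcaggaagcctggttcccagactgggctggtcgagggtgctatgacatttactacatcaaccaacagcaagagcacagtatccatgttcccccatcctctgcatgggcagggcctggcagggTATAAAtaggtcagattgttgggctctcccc
S100a6: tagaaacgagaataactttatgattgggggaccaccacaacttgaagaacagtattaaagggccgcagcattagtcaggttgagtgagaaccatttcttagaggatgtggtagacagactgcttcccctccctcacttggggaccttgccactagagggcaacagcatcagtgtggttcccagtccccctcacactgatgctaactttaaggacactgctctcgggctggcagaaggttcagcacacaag
Anxa1: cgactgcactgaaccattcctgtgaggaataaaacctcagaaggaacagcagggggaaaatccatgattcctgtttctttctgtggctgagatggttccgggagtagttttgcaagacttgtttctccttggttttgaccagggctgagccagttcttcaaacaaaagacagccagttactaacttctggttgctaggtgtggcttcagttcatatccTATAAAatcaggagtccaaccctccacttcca
Anxa2: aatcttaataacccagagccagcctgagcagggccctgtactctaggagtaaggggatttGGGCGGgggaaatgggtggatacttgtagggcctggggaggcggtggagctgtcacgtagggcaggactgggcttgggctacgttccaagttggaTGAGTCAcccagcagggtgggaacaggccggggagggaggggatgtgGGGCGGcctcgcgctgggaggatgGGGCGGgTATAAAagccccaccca
The motifs searched on both strands were the TATA box, spelled TATAAA. The AP-1 site was spelled TGANTCA. The GC box was spelled GGGCGG, and the E-box CACGTG. The capital stretches did not overlap. S100a4 holds TATAAA 31 bases before its start, Anxa1 at 32 bases and Anxa2 at 17 bases. TATAAA occurs in 12.4% of the 32851 promoter windows of this length in the table. Anxa2 also holds TGANTCA at 95 bases, which 6.75% of windows contain, and GGGCGG at 190, 48 and 24 bases, which 32.7% contain. The S100a6 window holds none of these letters, though its change against naive cells is close in size to that of S100a4. A sequence was given for 8 of the 10 genes. Among the windows not printed, that of S100a11 holds TGANTCA at 136 and 38 bases and GGGCGG at 64, 52 and 24 bases. It also holds CACGTG at 223 bases, which 6.02% of all windows contain. The windows of S100a13, Anxa4 and Anxa5 hold none of these motifs.

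The sorted populations followed their labels. Havcr2, the gene of Tim-3, averaged 11.66 ± 0.14 log2 units in Tim-3+ TIL, 7.08 ± 0.49 in Tim-3- TIL and 4.63 ± 0.23 in naive cells (SD, n = 4, 3 and 5). Cd244a, the gene of 2B4, averaged 11.49 ± 0.54, 4.89 ± 0.77 and 4.19 ± 0.30 in the same order. The files hold no detection calls, so log2 5.71, percentile 40 of all gene means, is called the dim level here, below which a signal may be background. All 7 CD8 T cell markers lay above it in every group. Against naive cells limma called 0 of the 7 higher, with 2 lower in Tim-3- TIL and 3 lower in Tim-3+ TIL. Over all genes 18.3% and 21.4% fell in these comparisons. Cd8b1 fell by 0.76 ± 0.10 in Tim-3- TIL and by 0.70 ± 0.09 in Tim-3+ TIL. Arrays of every group also fall into 2 sets that no label names, found from the values in earlier work on these data. Set A holds Tim-3+ replicates 1 and 2, Tim-3- replicate 1 and naive replicates 1 and 2, and set B holds the other 7 arrays. Over all genes, 2 arrays of a group differed by 0.234 to 0.301 log2 units (SD of the differences) within a set and by 0.337 to 0.412 between sets. Median intensities of the 12 arrays ran between 58.8 and 63.0. The number of arrays limits the precision.

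In Tim-3+ against Tim-3- TIL, 7 of the 9 genes rose: S100a4, S100a6, S100a13, Anxa1, Anxa2, Anxa4 and Anxa6. S100a10 and Anxa5 did not pass the test. Over all 18193 genes 7.77% rose in this comparison and 5.77% fell. The median log2 change was 0.67 over the 9 genes and 0.01 over all genes. The number of the 9 genes that fell was 0 by limma, both at an adjusted p and at an unadjusted p under 0.05. In 7 of the 9 genes every Tim-3+ array lay above every Tim-3- array, as in 13.1% of all genes. The rise exceeded 2-fold in Anxa1 alone among the 9, where 2.05% of all genes rose by at least 2-fold.

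In Tim-3- TIL against naive cells, 7 of the 9 genes rose, S100a13 and Anxa6 being the others, where 16.1% of all genes rose and 18.3% fell. The median change was 1.81 over the 9 genes and -0.06 over all genes. A rise of at least 2-fold was called for 5 of the 9 genes, as for 6.99% of all genes. S100a4, S100a6 and Anxa2 rose by at least 32-fold, as did 0.236% of all genes. In Tim-3+ TIL against naive cells, 8 of the 9 genes rose, all but Anxa6, where 20.1% of all genes rose and 21.4% fell. The median change was 2.79 over the 9 genes and -0.07 over all genes, and 5 of the 9 genes rose by at least 2-fold, as did 8.25% of all genes. S100a4, S100a6 and Anxa2 again rose by at least 32-fold, as did 0.484% of all genes. In both comparisons limma called 0 of the 9 genes lower, and the count at an unadjusted p under 0.05 was also 0. All arrays of Tim-3+ TIL lay above all naive arrays in 9 of the 9 genes, as in 18.4% of all genes, and Tim-3- arrays lay above all naive arrays in 6, as in 16.1% of all genes. The Anxa6 entry in these counts depends on the probe set, as described for that gene.

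**Figure D1:**
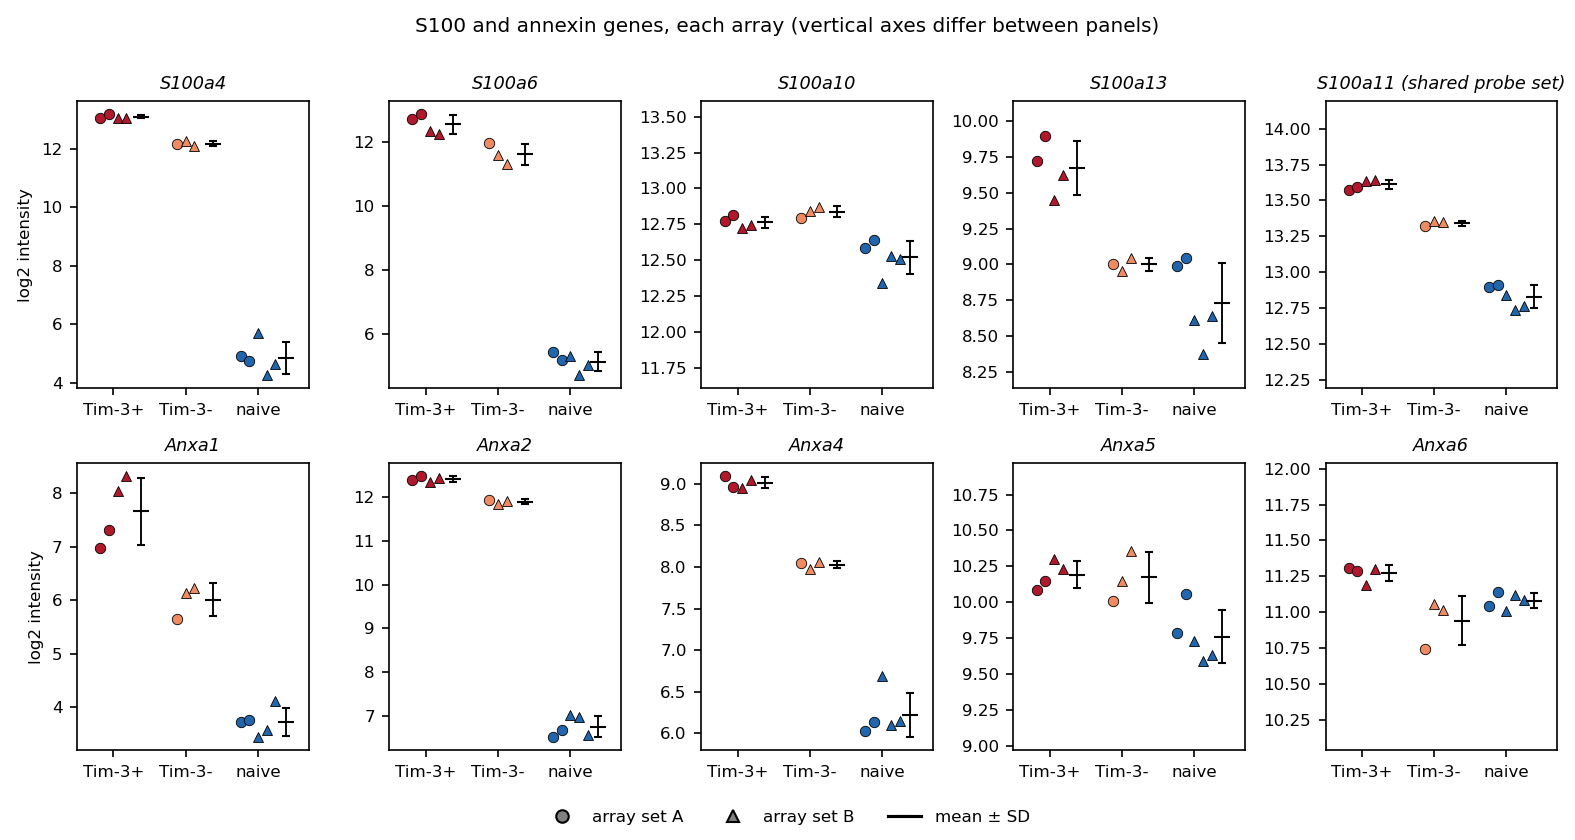
Log2 intensity (vertical axes, which differ between panels) of each gene on each array in Tim-3+ TIL, Tim-3- TIL and naive cells, with circles for array set A, triangles for set B, and the mean ± SD beside the points. S100a4, S100a6 and Anxa2 stand between 5.16 and 8.24 log2 units above naive cells in the TIL groups, while S100a10, Anxa5 and Anxa6 differ by at most 0.43 between group means.

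**Figure D2:**
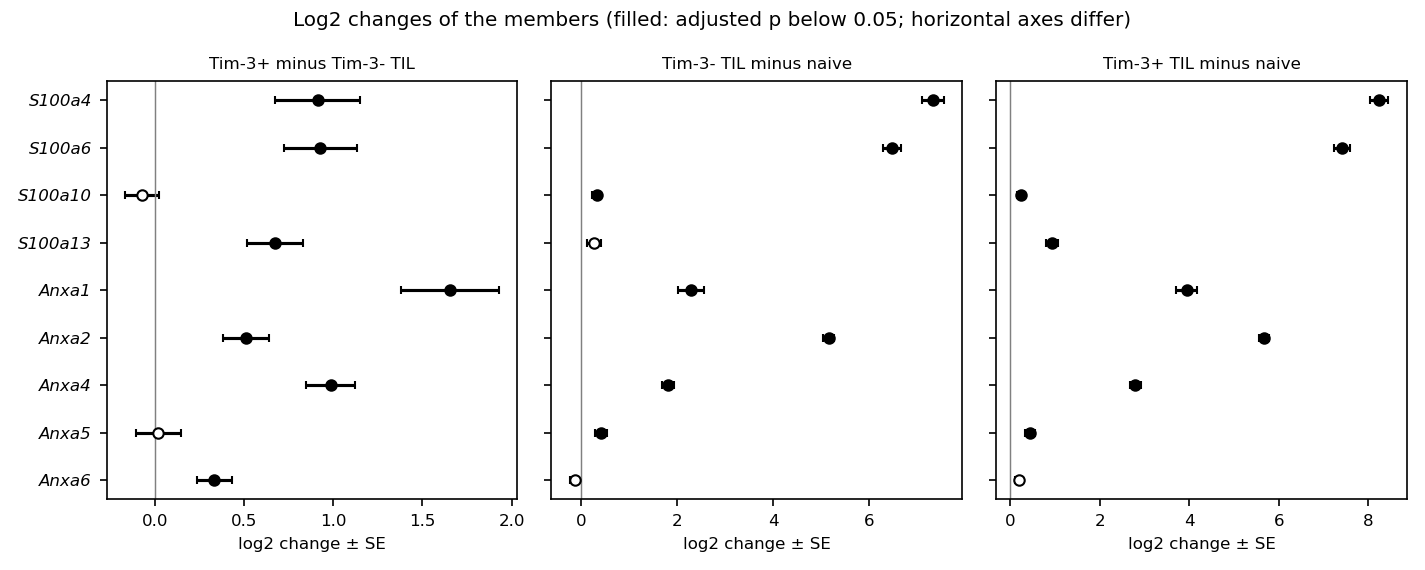
Log2 change ± SE of each of the 9 genes in the 3 comparisons (horizontal axes, which differ between panels), with filled points where the adjusted p is below 0.05. Between the TIL groups Anxa1 has the largest change of the 9 at 1.65, and against naive cells S100a4 has it, at 7.33 in Tim-3- TIL and 8.24 in Tim-3+ TIL.

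S100a4, also known as metastasin, encodes a calcium sensor that binds non-muscle myosin heavy chains. Its log2 intensity was 13.06, 13.18, 13.06 and 13.07 in Tim-3+ TIL, 12.17, 12.26 and 12.10 in Tim-3- TIL, and 4.93, 4.73, 5.70, 4.26 and 4.63 in naive cells. The 3 groups did not overlap, and the naive arrays lay far below both TIL groups. Naive replicate 3 was the highest naive array. The means were 13.09 ± 0.06, 12.18 ± 0.08 and 4.85 ± 0.53 (SD). S100a4 rose by 0.91 ± 0.24 (SE) in Tim-3+ against Tim-3- TIL, which is 1.88-fold (adjusted p = 0.0197). It rose by 7.33 ± 0.23 in Tim-3- TIL against naive cells (adjusted p = 2.68e-11) and by 8.24 ± 0.21 in Tim-3+ TIL against naive cells (adjusted p = 2.38e-12). The naive mean lies below the dim level, so both changes against naive cells are at best lower bounds. The rise between the TIL groups had an adjusted p of 0.0508 without Tim-3- replicate 2 and of 0.0674 without Tim-3- replicate 3. It was 0.95 within set A and 0.88 within set B, where its adjusted p was 0.198.

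S100a6, or calcyclin, encodes a calcium sensor whose partners include annexins and the calcyclin-binding protein Cacybp. It stood at 12.73, 12.86, 12.33 and 12.26 in Tim-3+ TIL, at 11.96, 11.58 and 11.31 in Tim-3- TIL, and at 5.44, 5.18, 5.33, 4.71 and 5.03 in naive cells. The groups did not overlap, and in each TIL group the arrays of set A were the higher ones. The rise was 0.93 ± 0.20 in Tim-3+ against Tim-3- TIL, or 1.90-fold (adjusted p = 0.00677), and it was 0.84 within set A and 0.85 within set B. Against naive cells S100a6 rose by 6.48 ± 0.19 in Tim-3- TIL (adjusted p = 2.00e-11) and by 7.40 ± 0.18 in Tim-3+ TIL (adjusted p = 1.69e-12). The naive mean of 5.14 ± 0.29 is below the dim level, so these too are at best lower bounds. All of its calls held in every alternative fit and with each array left out.

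S100a10, or p11, is the S100 protein that keeps its open shape without calcium and binds annexin A2. Its brightest probe set read 12.77, 12.82, 12.73 and 12.75 in Tim-3+ TIL, 12.80, 12.84 and 12.87 in Tim-3- TIL, and 12.58, 12.64, 12.34, 12.53 and 12.51 in naive cells. Every TIL array lay above every naive array, by small margins, and the TIL groups overlapped. The change between the TIL groups was -0.07 ± 0.09 (adjusted p = 0.738). Against naive cells the rise was 0.32 ± 0.09 in Tim-3- TIL, or 1.25-fold (adjusted p = 0.0139), and 0.25 ± 0.08 in Tim-3+ TIL, or 1.19-fold (adjusted p = 0.0282). These small rises were the least stable of the S100 calls: the one in Tim-3+ TIL was lost in 9 alternative fits and the one in Tim-3- TIL in 4. Within set A they were 0.18 (adjusted p = 0.253) and 0.19 (adjusted p = 0.370), and within set B 0.28 (adjusted p = 0.0630) and 0.40 (adjusted p = 0.0166). The adjusted p of the rise in Tim-3+ TIL lay between 0.0520 and 0.0719 without Tim-3+ replicate 1, 2 or 4 or naive replicate 3 or 5, and that of the rise in Tim-3- TIL was 0.0569 without Tim-3- replicate 3.

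Another S100a10 probe set gave a steeper picture and a strong split between array sets. It read 12.10, 12.21, 11.28 and 11.25 in Tim-3+ TIL, 11.69, 11.15 and 11.21 in Tim-3- TIL, and 11.61, 11.58, 10.66, 10.52 and 10.41 in naive cells. Within each group the arrays of set A lay above those of set B. The planned fit of this probe set, without a block, called neither of 2 changes. They were 0.40 in Tim-3- TIL against naive cells (adjusted p = 0.363) and 0.36 between the TIL groups (adjusted p = 0.598). A fit with the sets as a block was added after the data were seen. In it the probe set was 0.46 higher in Tim-3- TIL than in naive cells (adjusted p = 0.00628). It was 0.67 higher in Tim-3+ TIL than in naive cells (adjusted p = 0.000151). Between the TIL groups that fit gave 0.21 (adjusted p = 0.294). The dimmest probe set averaged 6.65, 6.85 and 6.71 in Tim-3+ TIL, Tim-3- TIL and naive cells.

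Anxa2 encodes the annexin that binds the S100A10 dimer and carries it to the inner face of the plasma membrane. It read 12.39, 12.48, 12.34 and 12.45 in Tim-3+ TIL, 11.95, 11.84 and 11.92 in Tim-3- TIL, and 6.50, 6.68, 7.01, 6.98 and 6.57 in naive cells. The groups did not overlap, and the naive mean of 6.75 ± 0.23 lay above the dim level. Anxa2 rose by 5.16 ± 0.12 in Tim-3- TIL against naive cells, or 35.7-fold (adjusted p = 5.50e-12), and by 5.67 ± 0.11 in Tim-3+ TIL against naive cells, or 50.8-fold (adjusted p = 5.81e-13). Between the TIL groups the rise was 0.51 ± 0.13, or 1.43-fold (adjusted p = 0.0163). That smaller rise was 0.48 within set A and 0.52 within set B, with adjusted p of 0.112 and 0.0804, and its adjusted p was 0.0704 without Tim-3- replicate 2. The 2 other Anxa2 probe sets were below the dim level in all group means. The S100a10 and Anxa2 transcripts, whose proteins form a complex, changed by very different amounts on these probe sets: at most 0.76 for the 3 S100a10 probe sets and 5.67 for the Anxa2 probe set used, in Tim-3+ TIL against naive cells.

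S100a11, or calgizzarin, encodes the S100 partner of annexin A1. The shared probe set read 13.57, 13.60, 13.64 and 13.64 in Tim-3+ TIL, 13.32, 13.36 and 13.35 in Tim-3- TIL, and 12.90, 12.91, 12.84, 12.74 and 12.76 in naive cells. The 3 groups did not overlap. The differences of means were 0.27 between Tim-3+ and Tim-3- TIL, 0.51 between Tim-3- TIL and naive cells and 0.78 between Tim-3+ TIL and naive cells. How much of this signal belongs to S100a11 and how much to the other entries it names cannot be told from the array.

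Anxa1, formerly lipocortin, encodes the annexin known as a glucocorticoid-induced mediator that acts on formyl peptide receptors. It read 6.98, 7.31, 8.04 and 8.31 in Tim-3+ TIL, 5.65, 6.14 and 6.23 in Tim-3- TIL, and 3.71, 3.76, 3.43, 3.57 and 4.11 in naive cells. The groups did not overlap, and in both TIL groups the arrays of set B were the higher ones. The rise in Tim-3+ against Tim-3- TIL was 1.65 ± 0.28, or 3.14-fold (adjusted p = 0.00104), and it was 1.49 within set A and 1.99 within set B, past the threshold in both. Anxa1 rose by 2.29 ± 0.26 in Tim-3- TIL against naive cells (adjusted p = 1.04e-05) and by 3.94 ± 0.24 in Tim-3+ TIL against naive cells (adjusted p = 9.07e-09). The naive mean of 3.72 ± 0.26 is below the dim level, so the changes against naive cells are at best lower bounds. The other Anxa1 probe set averaged 2.40, 2.54 and 2.44 in Tim-3+ TIL, Tim-3- TIL and naive cells, below the dim level in all 3.

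S100a13 encodes an S100 protein that takes part in the export of FGF1 and interleukin-1 alpha, proteins without a signal peptide. It read 9.72, 9.90, 9.45 and 9.63 in Tim-3+ TIL, 9.001, 8.958 and 9.046 in Tim-3- TIL, and 8.99, 9.04, 8.61, 8.38 and 8.64 in naive cells. The Tim-3+ arrays lay above all others, while the Tim-3- arrays overlapped the naive arrays of set A. S100a13 rose by 0.67 ± 0.16 in Tim-3+ against Tim-3- TIL, or 1.59-fold (adjusted p = 0.0104), and by 0.94 ± 0.14 in Tim-3+ TIL against naive cells, or 1.92-fold (adjusted p = 6.59e-05). The change in Tim-3- TIL against naive cells was 0.27 ± 0.15 (adjusted p = 0.194). That difference was -0.01 within set A and 0.46 within set B, where its adjusted p was 0.0186.

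Anxa4 encodes an annexin of internal and plasma membranes that is best known from epithelia. It read 9.09, 8.97, 8.95 and 9.05 in Tim-3+ TIL, 8.04, 7.98 and 8.05 in Tim-3- TIL, and 6.02, 6.14, 6.69, 6.10 and 6.15 in naive cells. The groups were separate, with naive replicate 3 above the other naive arrays. The rise was 0.99 ± 0.14 in Tim-3+ against Tim-3- TIL, or 1.98-fold (adjusted p = 0.000274). It was 1.81 ± 0.13 in Tim-3- TIL against naive cells, or 3.50-fold (adjusted p = 1.31e-07), and 2.79 ± 0.12 in Tim-3+ TIL against naive cells, or 6.93-fold (adjusted p = 2.64e-10). The 2 other Anxa4 probe sets moved the same way by larger amounts. One differed by 1.17, 3.51 and 4.68 and the other by 1.22, 2.13 and 3.35 in these 3 comparisons, with naive means of 4.53 and 5.88 that are lower than the 6.22 of the probe set used or below the dim level.

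Anxa5 encodes annexin A5, the protein used to stain phosphatidylserine on dying cells. It read 10.09, 10.15, 10.30 and 10.23 in Tim-3+ TIL, 10.01, 10.15 and 10.36 in Tim-3- TIL, and 9.78, 10.06, 9.73, 9.59 and 9.63 in naive cells. The TIL groups overlapped, and naive replicate 2 stood above the lowest Tim-3- array. The change between the TIL groups was 0.02 ± 0.13 (adjusted p = 0.956). Anxa5 rose by 0.41 ± 0.12 in Tim-3- TIL against naive cells (adjusted p = 0.0161) and by 0.43 ± 0.11 in Tim-3+ TIL against naive cells (adjusted p = 0.00587). The arrays of set A gave 0.09 (adjusted p = 0.743) and 0.20 (adjusted p = 0.320) for these rises, and those of set B gave 0.60 and 0.62. The adjusted p of the rise in Tim-3- TIL was 0.0993 without Tim-3- replicate 3 and 0.0600 with the replicate number as a block.

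Anxa6 encodes an annexin with a longer core than the others, known from endosomes and cholesterol transport. Its brightest probe set read 11.31, 11.29, 11.19 and 11.30 in Tim-3+ TIL, 10.74, 11.06 and 11.02 in Tim-3- TIL, and 11.04, 11.14, 11.01, 11.12 and 11.09 in naive cells. The Tim-3+ arrays lay above all others and Tim-3- replicate 1 was the lowest array. Anxa6 rose by 0.33 ± 0.10 in Tim-3+ against Tim-3- TIL, or 1.26-fold (adjusted p = 0.0389), a call lost in 12 of the alternative fits. Of these, 5 left out 1 array, Tim-3+ replicate 1, 2 or 4 or Tim-3- replicate 1 or 3, with adjusted p between 0.0609 and 0.145. The changes against naive cells were -0.14 ± 0.09 in Tim-3- TIL (adjusted p = 0.292) and 0.19 ± 0.09 in Tim-3+ TIL (adjusted p = 0.0937).

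The Anxa6 probe sets did not move together. The one that varied most read 7.49, 7.95, 8.24 and 8.01 in Tim-3+ TIL, 7.46, 8.14 and 7.50 in Tim-3- TIL, and 9.02, 8.84, 9.16, 8.98 and 9.12 in naive cells. On it both TIL groups lay below every naive array. Read from that probe set, Anxa6 fell by 1.33 in Tim-3- TIL against naive cells (adjusted p = 4.60e-05) and by 1.10 in Tim-3+ TIL against naive cells (adjusted p = 8.22e-05). The dimmest probe set differed by -0.74 and -0.58 in these comparisons, and the remaining one by -0.36 and 0.06. No direction is therefore given for Anxa6 against naive cells.

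**Figure D3:**
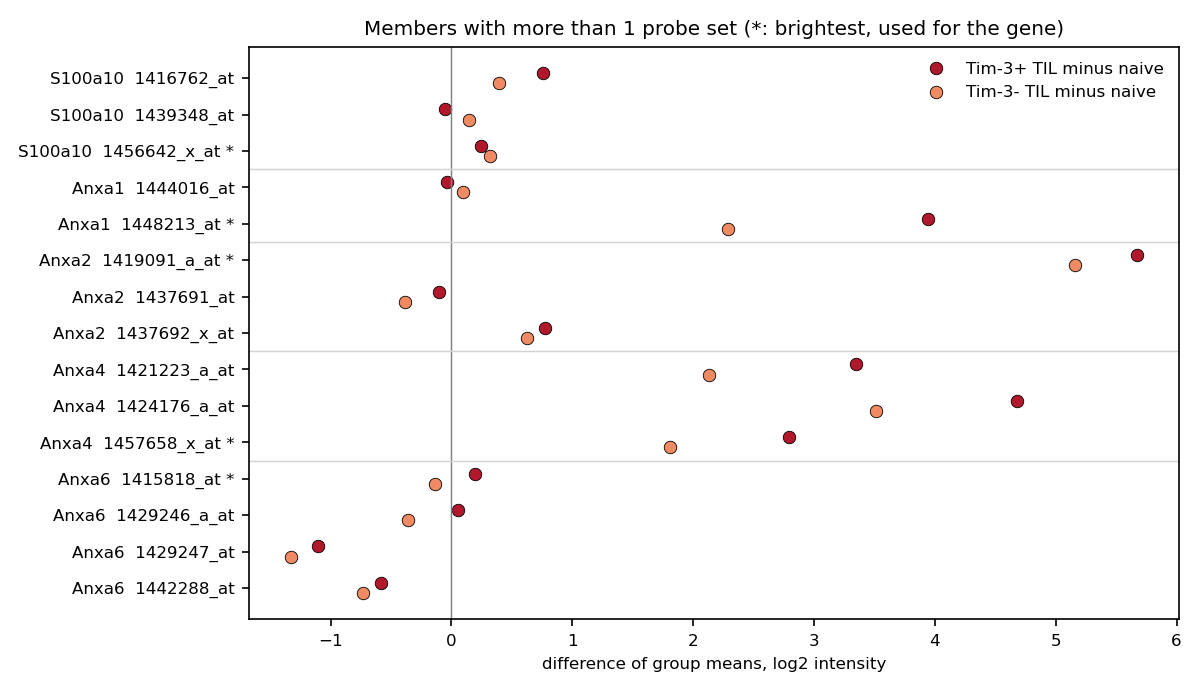
Difference of group means in log2 intensity (horizontal axis) for each probe set of the 5 genes that have more than 1, with Tim-3+ TIL minus naive cells in dark red and Tim-3- TIL minus naive cells in orange, and an asterisk at the probe set used. The 3 Anxa4 probe sets share a direction, the Anxa2 value of 5.67 rests on 1 of its 3 probe sets, and the Anxa6 probe sets fall on both sides of 0.

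Most other S100 and annexin genes measured lay below the dim level in every group mean, which limits what their values can show. Their counts stand beside the shares of all genes. These were 7.77% higher and 5.77% lower in Tim-3+ against Tim-3- TIL. They were 16.1% and 18.3% in Tim-3- TIL against naive cells, and 20.1% and 21.4% in Tim-3+ TIL against naive cells. Of 12 further S100 genes listed, 9 were measured. Limma called 0 of them in either direction between Tim-3+ and Tim-3- TIL, with 1 higher and 0 lower at an unadjusted p under 0.05. S100a3 rose by 0.44 ± 0.16 in Tim-3- TIL against naive cells (adjusted p = 0.0458), at levels below the dim level in all groups. In Tim-3+ TIL against naive cells S100a5 rose by 0.40 ± 0.14 (adjusted p = 0.0390) and S100g fell by 0.42 (adjusted p = 0.0287). S100a5 averaged 5.48 in Tim-3+ TIL against 5.08 in naive cells, and S100g averaged 5.50 against 5.92, all near or below the dim level. S100a8 and S100a9, the calprotectin pair of neutrophils and monocytes, were not called in any comparison: S100a8 averaged 3.82, 3.91 and 4.24 and S100a9 averaged 5.59, 5.52 and 6.07 in Tim-3+ TIL, Tim-3- TIL and naive cells.

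Of 7 further annexin genes, 6 were measured. Limma called 0 of them between Tim-3+ and Tim-3- TIL, with 1 higher and 0 lower at an unadjusted p under 0.05, and 0 of them in Tim-3- TIL against naive cells, where 0 passed an unadjusted p under 0.05. In Tim-3+ TIL against naive cells 2 of the 6 rose, where 20.1% of all genes rose. They were Anxa7, by 0.43 ± 0.12 (adjusted p = 0.0122), and Anxa9, by 0.96 ± 0.25 (adjusted p = 0.00651). Anxa7 encodes an annexin also called synexin and averaged 9.84 ± 0.06 in Tim-3+ TIL against 9.41 ± 0.26 in naive cells. Anxa9 averaged 6.33 ± 0.29 in Tim-3+ TIL against 5.37 ± 0.56 in naive cells, where the naive mean is below the dim level.

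Neighbouring S100 genes on chromosome 3 changed by different amounts. From S100a1 to S100a9 the RefSeq annotation lists 12 protein-coding genes, all of the S100 family, of which 10 were measured. Of these 10, 4 rose in Tim-3+ TIL against naive cells, where 20.1% of all genes rose, and 3 in Tim-3- TIL against naive cells, where 16.1% did. The 4 are S100a4, S100a6, S100a13 and the dim S100a5, and the 3 are S100a4, S100a6 and the dim S100a3. S100a1 was not called on its brightest probe set, with changes of 0.34 and 0.24 in Tim-3+ and Tim-3- TIL against naive cells. Its other probe set averaged 6.05 in Tim-3+ TIL, 5.80 in Tim-3- TIL and 4.90 in naive cells. The differences of means from naive cells were 1.15 and 0.89, so the entry of S100a1 in these counts depends on the probe set. S100a4 and S100a6 are separated by S100a5 alone. S100a5 changed by 0.40 ± 0.14 in Tim-3+ TIL and -0.09 ± 0.16 in Tim-3- TIL against naive cells. The genes to either side, S100a4 and S100a6, changed by 8.24 and 7.40 in Tim-3+ TIL and by 7.33 and 6.48 in Tim-3- TIL. S100a10 and S100a11 lie next to each other elsewhere on chromosome 3, which also carries Anxa5. Anxa1 is on chromosome 19, Anxa2 on chromosome 9, Anxa4 on chromosome 6 and Anxa6 on chromosome 11.

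**Figure D4:**
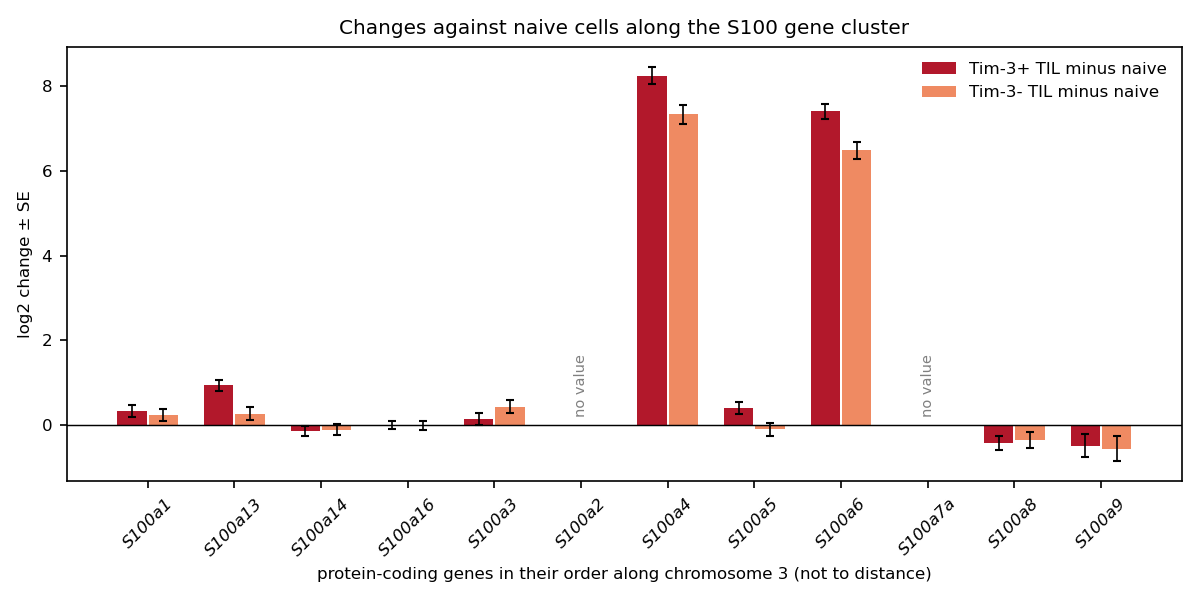
Log2 change ± SE against naive cells (vertical axis) for Tim-3+ TIL in dark red and Tim-3- TIL in orange, for the S100 genes in their order on chromosome 3 (horizontal axis, not to distance), with no value for S100a2 and S100a7a. The bars of S100a4 and S100a6 reach 8.24 and 7.40 in Tim-3+ TIL, and S100a5 between them reaches 0.40.

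Of 15 listed partners and receptors of the families, 14 were measured. In Tim-3+ against Tim-3- TIL 2 fell and 0 rose by limma, while 4 were higher at an unadjusted p under 0.05. Plaur, the urokinase receptor of the plasminogen system that S100A10 with annexin A2 also serves, averaged 5.31 ± 0.19 in Tim-3+ TIL, 6.59 ± 0.13 in Tim-3- TIL and 7.04 ± 0.22 in naive cells. It fell by 1.28 in Tim-3+ against Tim-3- TIL (adjusted p = 3.48e-05), by 0.44 in Tim-3- TIL against naive cells and by 1.72 in Tim-3+ TIL against naive cells. Prkca, the kinase of which annexin A6 is a known binding partner, averaged 9.20 ± 0.15 in Tim-3+ TIL, 10.22 ± 0.23 in Tim-3- TIL and 9.38 ± 0.26 in naive cells. It was lower by 1.02 in Tim-3+ than in Tim-3- TIL (adjusted p = 0.00067). Against naive cells Prkca rose by 0.84 ± 0.15 in Tim-3- TIL (adjusted p = 0.000618). Its change in Tim-3+ TIL against naive cells was -0.18 ± 0.14 (adjusted p = 0.349).

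Of the 14 partners, the test called 4 higher and 3 lower in Tim-3- TIL than in naive cells, and 4 higher and 2 lower in Tim-3+ TIL. Counts of this list and of those that follow stand beside the shares of all genes, 16.1% higher and 18.3% lower in Tim-3- TIL against naive cells, 20.1% and 21.4% in Tim-3+ TIL against naive cells, and 7.77% and 5.77% in Tim-3+ against Tim-3- TIL. No list was tested as a set. Ahnak, the giant scaffold that binds S100A10 with annexin A2, averaged 12.94 ± 0.10 in Tim-3+ TIL, 13.08 ± 0.08 in Tim-3- TIL and 12.13 ± 0.03 in naive cells, and rose by 0.94 ± 0.09 in Tim-3- TIL and by 0.81 ± 0.08 in Tim-3+ TIL against naive cells. Ahnak was named after its values were seen. Ctsb, a protease that binds the same complex, rose by 0.81 ± 0.10 in Tim-3- TIL and by 1.10 ± 0.09 in Tim-3+ TIL against naive cells. Myh9, the myosin chain bound by S100A4, differed by -0.05 ± 0.08 and -0.06 ± 0.07 in these comparisons.

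Among 7 penta-EF-hand proteins, a neighbouring family of calcium sensors that includes the calpains, Capn2 alone passed the test in Tim-3+ against Tim-3- TIL. Capn2, the large subunit of m-calpain, averaged 10.41 ± 0.14 in Tim-3+ TIL, 9.78 ± 0.09 in Tim-3- TIL and 9.26 ± 0.10 in naive cells, and rose by 0.64 ± 0.11 between the TIL groups (adjusted p = 0.00097). In each comparison with naive cells 4 of the 7 rose and 1, Capn1, fell. Of 8 membrane repair genes, Pdcd6ip, an ESCRT partner, rose by 0.39 ± 0.11 and Trim72 fell by 0.58 in Tim-3+ against Tim-3- TIL. Trim72, a repair protein best known from muscle, averaged 7.39 ± 0.09 in Tim-3+ TIL, 7.97 ± 0.19 in Tim-3- TIL and 5.63 ± 0.28 in naive cells.

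The phosphatidylserine that annexin A5 binds is kept inside the cell by flippases. Of 8 measured genes that flip or scramble it, Tmem30a, the flippase subunit, rose in all 3 comparisons: by 0.51 ± 0.14 in Tim-3+ against Tim-3- TIL, by 0.85 ± 0.13 in Tim-3- TIL against naive cells and by 1.36 ± 0.12 in Tim-3+ TIL against naive cells. In Tim-3- TIL against naive cells 2 of the 8 rose and 3 fell, and in Tim-3+ TIL against naive cells 3 rose and 4 fell. Plscr1, an interferon-induced scramblase family gene named after its values were seen, averaged 10.82 ± 0.15 in Tim-3+ TIL, 10.99 ± 0.11 in Tim-3- TIL and 4.69 ± 0.47 in naive cells. Xkr8, the caspase-activated scramblase, fell by 1.02 in Tim-3- TIL and by 0.63 in Tim-3+ TIL against naive cells.

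The glucocorticoid receptor gene Nr3c1 and targets of the receptor were listed because Anxa1 is a known glucocorticoid target. Of these 7 genes, 2 fell and 0 rose in Tim-3+ against Tim-3- TIL by limma, with 0 higher at an unadjusted p under 0.05. The part of glucocorticoids in the Anxa1 values was not tested. Klf9 fell by 0.78 (adjusted p = 0.0445) and Sgk1 by 0.80 (adjusted p = 0.0104). Against naive cells 3 rose in each TIL group, Nr3c1, Per1 and Klf9. Lower calls numbered 1 for Tim-3- TIL (Tsc22d3) and 3 for Tim-3+ TIL (Tsc22d3, Sgk1 and Zbtb16). The 7 genes had median log2 changes of -0.29 and -0.14 in this order. Klf9 was among the genes that rose, by 3.28 ± 0.23 in Tim-3- TIL and 2.50 ± 0.21 in Tim-3+ TIL. Tsc22d3, the glucocorticoid-induced leucine zipper, fell by 1.15 in Tim-3- TIL and by 1.54 in Tim-3+ TIL against naive cells.

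Of 15 actin and filament genes, several of which encode parts of the cell cortex that annexins bind, 6 rose in each comparison with naive cells, while 2 fell in Tim-3- TIL and 1 in Tim-3+ TIL. The median log2 change of the 15 was 0.01 in Tim-3- TIL and 0.13 in Tim-3+ TIL against naive cells. Lgals1, encoding galectin-1, rose by 1.30 ± 0.13 in Tim-3- TIL and by 1.71 ± 0.12 in Tim-3+ TIL against naive cells. Capg, an actin-capping gelsolin family protein, rose by 3.12 ± 0.19 and 3.60 ± 0.18 in these comparisons. Between the TIL groups Itgb1, the integrin beta 1 chain, fell by 1.42 in Tim-3+ against Tim-3- TIL and Emp3 rose by 0.54 ± 0.14, the 2 of the 15 that passed.

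Across the 12 arrays, the genes whose log2 values followed each member most closely are given as a description, since all points share the arrays and the 3 groups. S100a4 lay closest to Pdcd1, the gene of PD-1 used in the sort (Pearson r = 0.998), and Anxa2 to Fasl and Pdcd1 (r = 0.998 for both). S100a6 lay closest to Hspa1a (r = 0.997). S100a13 lay closest to Ech1 (r = 0.987), and Anxa1 to Rgs8 (r = 0.994). Anxa4 lay closest to the mitotic genes Tacc3 and Cenpa (r = 0.996 for both). The closest genes to S100a10, Anxa5 and Anxa6 reached r of 0.953, 0.951 and 0.918.

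S100 and annexin genes are also expressed by melanoma, myeloid and stromal cells, so the markers of other cells are given beside these results. Of 9 melanoma markers, limma called 0 between Tim-3+ and Tim-3- TIL, with 1 higher and 0 lower at an unadjusted p under 0.05. In Tim-3- TIL, 2 were higher and 2 lower than in naive cells by the test, and in Tim-3+ TIL, 5 were higher and 2 lower. The summed intensity of the 9 ran between 579 and 1480 in Tim-3+ TIL, 589.5 and 865 in Tim-3- TIL and 915 and 1129 in naive cells. These sums mix rises and falls. Pmel and Trpm1, with the highest naive means of the 9 at 8.05 and 9.03, fell in both TIL groups against naive cells. Tyrp1 and Dct rose in both, Dct by 2.24 ± 0.58 in Tim-3- TIL and by 2.92 ± 0.53 in Tim-3+ TIL. Tyr and Mitf were below the dim level in all groups. Tyrp1 read 8.29, 4.67, 7.55 and 6.55 in Tim-3+ TIL, 5.52, 5.61 and 7.34 in Tim-3- TIL and 2.94 to 3.38 in naive cells.

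Of 12 macrophage markers, 10 were below the dim level in every group, among them Lyz2, Adgre1 and the C1q genes. Their summed intensity ran between 448 and 561 in Tim-3+ TIL, 539 and 629 in Tim-3- TIL and 372 and 452 in naive cells. Between the TIL groups Cd68 fell and Cd14 rose in Tim-3+ TIL. Against naive cells Cd68 rose by 1.45 ± 0.21 in Tim-3- TIL and by 0.63 ± 0.19 in Tim-3+ TIL. In Tim-3+ TIL against naive cells Cd14 also rose, by 1.09 ± 0.17, and Fcgr1 fell. Cd14 and Fcgr1 are among the 10 dim genes. Of 6 neutrophil markers, 5 were below the dim level in every group, and the sum of the 6 ran between 313 and 567.5 in Tim-3+ TIL, 163 and 181 in Tim-3- TIL and 165 and 219 in naive cells. The sixth, Ltf, encoding lactoferrin, averaged 7.92 ± 0.54 in Tim-3+ TIL, 4.66 ± 0.17 in Tim-3- TIL and 4.75 ± 0.20 in naive cells. It rose by 3.26 ± 0.23 in Tim-3+ against Tim-3- TIL (adjusted p = 5.63e-07) and by 3.17 ± 0.20 in Tim-3+ TIL against naive cells (adjusted p = 1.55e-08). Of 10 fibroblast and endothelium markers, 6 were below the dim level in every group, with sums of 455 to 564.5 in Tim-3+ TIL, 642 to 691 in Tim-3- TIL and 1121 to 1370 in naive cells. Pecam1, the brightest of the 10 in every group, averaged 6.71, 8.17 and 9.77 in the same order. In Tim-3+ TIL against naive cells 1 of the 10 rose and 3 fell. Sparc rose by 0.73 ± 0.20 (adjusted p = 0.00847), while Pecam1, Cdh5 and Kdr fell. In each of the other comparisons 0 rose and 1, Pecam1, fell by limma. Sums of 5 B cell markers were 385 to 477 in Tim-3+ TIL, 1175 to 1287 in Tim-3- TIL and 2940 to 3859 in naive cells. The brightest of the 5 in naive cells were Ighm at 11.44 and Cd79b at 8.89, while Ms4a1 and Pax5 were dim in every group.

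The lists of 3 other cell types held genes that rose against naive cells, as most members did. Of 4 NK cell markers, Ncr1 and Klra8 were below the dim level in every group, while Klre1 and Eomes, which activated CD8 T cells can also express, rose in both TIL groups against naive cells. The sum of the 4 ran between 1534 and 2201 in Tim-3+ TIL, 1892 and 2274 in Tim-3- TIL and 395 and 482 in naive cells. Between the TIL groups Klre1 rose by 1.62 ± 0.31 and Eomes fell by 0.97 in Tim-3+ TIL. Of 4 CD4 and regulatory T cell markers, Cd40lg was below the dim level in every group, Cd4 and Il2ra rose in both TIL groups against naive cells, and Foxp3 rose in Tim-3- TIL against naive cells. The sum of these 4 ran between 944.5 and 1202 in Tim-3+ TIL, 1011 and 1222 in Tim-3- TIL and 296 and 329 in naive cells. Cd4 rose by 0.83 ± 0.13 in Tim-3- TIL and by 0.99 ± 0.12 in Tim-3+ TIL against naive cells. Between the TIL groups Foxp3 fell by 1.00 (adjusted p = 0.000107) and the dim Cd40lg by 0.75 (adjusted p = 0.00613) in Tim-3+ TIL. Of 6 dendritic cell markers, Flt3 and Xcr1 were below the dim level in every group, and Itgax and H2-Ab1 rose in both TIL groups against naive cells. Siglech fell in both TIL groups and Zbtb46 fell in Tim-3+ TIL against naive cells. Between the TIL groups Itgax fell in Tim-3+ TIL. The sum of the 6 ran between 459.6 and 532 in Tim-3+ TIL, 426 and 614 in Tim-3- TIL and 389 and 475.5 in naive cells.

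The 3′ minus 5′ difference of 5 array control transcripts, a sign of RNA quality, averaged 0.13 in Tim-3+ TIL, 0.23 in Tim-3- TIL and 0.22 in naive cells. The part of other cells or of RNA quality in the changes of the S100 and annexin genes was not tested.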

How the data were processed

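Total RNA of sorted CD8 T cells was measured on 12 arrays, 4 of Tim-3+ TIL, 3 of Tim-3- TIL and 5 of naive cells. The authors deposited linear intensity values per probe set, for 45101 probe sets including 64 controls. Per the submitters' processing notes they were made with RMA and the affy package. Their versions are not stated in the labels, and neither is how the values came to be linear or whether normalization was joint. The log2 of each deposited intensity was taken. Probe set names come from GEO's platform annotation, which names 1 gene for 34945 probe sets and several for 932. Each gene took the probe set with the highest mean over 12 arrays among those naming that gene alone, which gave 18193 genes.

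One limma fit (3.58.1, R 4.3.3) of the 3 group means with empirical Bayes moderation gave all changes, two-sided, with Benjamini-Hochberg adjustment over all 18193 genes and a threshold of 0.05. Errors are SE for changes and SD for levels. Tables and figures used Python 3.11.15 with numpy 2.4.6, pandas 2.3.3 and matplotlib 3.10.9. The method was tested on simulated data.

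The members, gene lists and tests were chosen with earlier results of these data known. Genes outside the members were named from these lists by a rule: at most 4 of a list with the smallest adjusted p between the TIL groups and those past the threshold in all 3 comparisons, plus the 2 most alike genes of each member. The examples Ahnak, Plscr1, Myh9, S100a8, S100a9 and the genes of other cell types that fall outside it were chosen after their values were seen. Same-numbered arrays of different groups did not deviate together in every pair (correlations of deviations -0.15 to 0.41 over 10 pairs). Over all pairs from different groups these correlations ran from 0.05 to 0.41 within an array set and from -0.39 to -0.12 across sets. Because the array sets dominate the deviations, this check cannot tell whether replicate numbers pair the samples. The main fit used no pairing. Alternatives tried were other probe set choices, quantile normalization, leaving out dim genes, another moderation, array weights, fits of 2 groups, blocks for replicate number and for array sets, fits within sets, and leaving out each array. Of these, the most variable probe set together with the array sets as a block was added after seeing the data. Sequences and gene order come from RefSeq tables for GRCm38.p6. Protein sequences were not used here.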

Additional observations from a re-analysis of the deposited data

Results flagged for a closer look

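Of 104 groups of 4 or 5 arrays tested for the described genes, 7 held 1 array far from the rest by Dixon's criterion. Chance gives about 1 in 20 groups. Among the members, S100a4 read 13.18 in Tim-3+ replicate 2 against 13.06 to 13.07 in the other Tim-3+ arrays, a small gap in a tight group. Anxa4 read 6.69 in naive replicate 3 against 6.02 to 6.15 in the other naive arrays, and Anxa6 read 11.19 in Tim-3+ replicate 3 against 11.29 to 11.31. A dim probe set of Anxa2 read 5.76 in Tim-3+ replicate 1 against 5.56 to 5.59. Outside the members, naive replicate 3 was the lowest naive array for S100a3 at 3.06 against 3.43 to 3.48, and the highest for Pef1 at 8.23 against 7.90 to 7.96. Tsc22d3 read 8.59 in Tim-3+ replicate 1 against 9.32 to 9.43 in the other Tim-3+ arrays. Naive replicate 3 accounts for 3 of the 7.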

How the results depend on the processing

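Over all alternatives, 486 of 537 values of the 9 genes kept their direction and their side of the threshold, 36 lost the call, 4 gained one and 11 turned sign. Every call of S100a6, S100a13, Anxa1 and Anxa4 held in each fit run that tested the gene. The calls of S100a4 and Anxa2 against naive cells also held in each. Within set B, 4 members rose in Tim-3+ against Tim-3- TIL in place of 7. With the mean of all probe sets, the most variable probe set, or that probe set with the array sets as a block, 1 member, Anxa6, was lower in place of 0 in both comparisons with naive cells. In Tim-3+ TIL against naive cells Anxa6 was then -0.36, -1.10 and -1.07. Under the same 3 settings S100a10 was 0.031, 0.36 and 0.21 in Tim-3+ against Tim-3- TIL. In that comparison Anxa5 was -0.0042 after quantile normalization and -0.037 with array weights, and leaving out 1 array gave -0.063 to 0.11. S100a13 in Tim-3- TIL against naive cells was -0.014 within set A. The cause was not tested. Leaving out 1 array gave 5 to 7 members higher in Tim-3+ against Tim-3- TIL, 5 to 7 in Tim-3- TIL against naive cells and 7 to 8 in Tim-3+ TIL against naive cells, with 0 lower by limma. With the replicate block 6, 6 and 7 members rose in these comparisons, and the calls lost were Anxa6 between the TIL groups (adjusted p = 0.0827), Anxa5 in Tim-3- TIL against naive cells (0.0600) and S100a10 in Tim-3+ TIL against naive cells (0.0654). The files give no signal over background, so changes of dim genes are limited by an unknown background.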
